A study of Mus musculus with 4 samples.

Results

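Integrins are the adhesion receptors with which a macrophage holds on to other cells, to matrix and to opsonised particles, and the genes described here are 9 integrin chains and the counter-receptor Icam1. The members were the alpha chains Itgam, Itgax, Itgal, Itga4, Itga5 and Itgav, the beta chains Itgb1, Itgb2 and Itgb5, and Icam1. They were found by symbol in the transcript tables and joined by Ensembl gene identifier to the gene tables, where each of the 10 symbols belonged to 1 of 55536 annotated genes. RNA came from the cytosol of C57BL/6J bone-marrow-derived macrophages, which are phagocytes grown from marrow precursors in culture, and was freed of ribosomal RNA before 4 libraries were made. The cells were pretreated with lipid A, the membrane anchor of bacterial endotoxin and the agonist of Toll-like receptor 4, at 100 ng/ml for 12 h, kept without it for 12 h after washing, and given 100 ng/ml again for 15 min. The libraries form 1 group, their labels number them as biological replicates 1 to 4, and they have separate biosample records, a shared donor record, and no sex or age recorded. With no untreated group among the samples used here, no value is a response to lipid A, and the comparisons made were between genes, between transcripts and between replicates.

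An integrin works as a pair of an alpha and a beta chain, so the level of either chain bears on how many pairs could form, although protein was not measured. The beta chain Itgb2 (CD18) is restricted to leukocytes and pairs with Itgal to form LFA-1, with Itgam to form Mac-1 (also complement receptor 3), and with Itgax to form complement receptor 4. Icam1 on another cell is the classic ligand of LFA-1 and Mac-1. The beta chain Itgb1 is widespread and pairs with Itga4, which binds Vcam1 and fibronectin, and with Itga5, the main fibronectin receptor. Itgav takes several beta chains, among them Itgb1 and Itgb5, and these pairs bind matrix proteins such as vitronectin and osteopontin. In resting cells the pairs are held in a low-affinity state, and talin and kindlin binding to the beta tail switches them on.

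Expected counts on annotated genes summed to between 30543162 and 48146793 per library. Of 10 macrophage markers, 10 lay above 1 TPM, while 6 of 6 natural killer cell markers had too few counts to test and 0 of 8 fibroblast markers lay above 1 TPM. Of the other marker lists, 3 of 12 neutrophil genes and 2 of 7 endothelial genes lay above 1 TPM. So did 1 each of 9 T cell, 6 B cell and 7 megakaryocyte genes. Among all genes tested the shares were 58.2% above and 35.1% below. Genes with too few counts are left out of these shares but counted in the marker lists. Not all of these markers were marginal. Their means ran from 1.36 TPM for the B cell gene Cd79b to 100.3 TPM for the megakaryocyte gene Pf4. The neutrophil gene Csf3r had 33.1 TPM (all named after their values were seen). TPM (a relative abundance with a fixed total per library) is corrected for transcript length, so that genes can be set side by side. Protein-coding genes took only part of it, 253019 TPM in replicate 2 to 366347 TPM in replicate 4, and rescaling to protein-coding genes would multiply each value by 2.73 to 3.95, moving the median gene by 1.67 on the log2 scale. The labels name 1 donor record for all replicates, so the p-values below cover these 4 samples only, whose variation may be technical only. The limma tests also moderate each gene's spread by that of all genes tested. Their p-values thus do not measure the gene's own spread alone. In such bulk RNA, fewer cells that transcribe a gene and less RNA per cell cannot be told apart.

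Of the 10 members, 9 lay above 1 TPM and Itgax lay below it (limma on log2(TPM + 0.1), one-sided in each direction, Benjamini-Hochberg adjustment over 16262 genes). Over all genes tested, 58.2% were called above 1 TPM and 35.1% below. Among the 12636 protein-coding genes tested, 71.2% were called above. The median of the members' mean levels was 26.5 TPM, against 2.72 TPM over all genes tested.

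**Figure D1:**
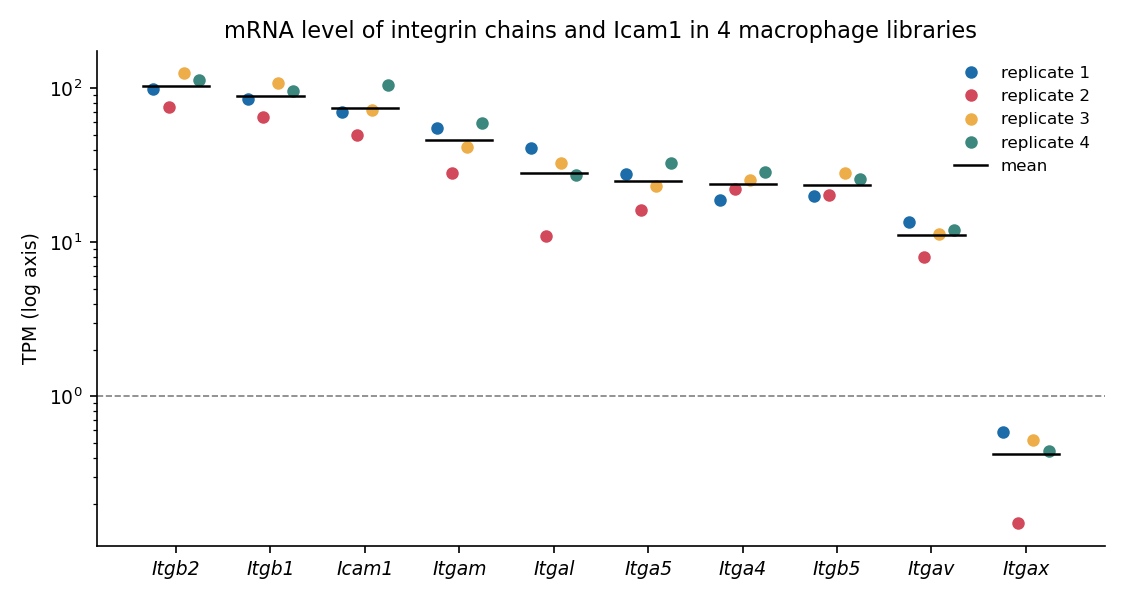
TPM of the 10 members (log axis), ordered by mean; points are the 4 replicates, black lines the means and the dashed line 1 TPM. Means run between 103 TPM for Itgb2 and 0.425 TPM for Itgax, whose values lie below 1 TPM as deposited and average 1.35 TPM when rescaled to protein-coding genes.

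Itgb2 and Itgb1 were the most abundant of the 10 and stood at nearly the same level. Itgb2 (chromosome 10, mm10 chr10:77530252-77565708, plus strand) had 99.6, 75.2, 125 and 113 TPM in replicates 1 to 4, a mean of 103 ± 21.4 TPM (SD, n = 4). Itgb1 (chr8:128685654-128733200, plus strand) had 84.6, 65.2, 109 and 96.5 TPM, a mean of 88.7 ± 18.5 TPM (SD, n = 4). Both beta chains were lowest in replicate 2 and highest in replicate 3. Of the genes tested, 96.8% had a lower mean TPM than Itgb2 and 96.4% a lower one than Itgb1.

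The ratio between these beta chains hardly changed from library to library. Itgb1 over Itgb2 was 0.849, 0.867, 0.868 and 0.853 in replicates 1 to 4. The SD of its log2 ratio was 0.016, against 0.15 to 0.61 for the other ratios computed among the members. Itgb2 was the higher in 4 of 4 libraries. The moderated test across all genes gave a log2 difference of -0.22 ± 0.16 (SE) for Itgb1 against Itgb2 and an adjusted p of 0.179 (limma), with an error that borrows from the spread of all genes. Without replicate 3 that adjusted p was 0.0393. The exact sign-flip permutation test of 4 libraries gave 0.125, the smallest p it can give.

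Itgb5, the beta chain that pairs with Itgav only, was less abundant. Itgb5 (chr16:33829665-33949338, plus strand) had 19.9, 20.4, 28.0 and 25.6 TPM, a mean of 23.5 ± 3.99 TPM (SD, n = 4). In TPM as deposited, replicates 1 and 2 were the lower pair and replicates 3 and 4 the higher. Rescaled to protein-coding genes, the values were 62.8, 80.5, 93.6 and 70.0 TPM, with replicate 2 above replicate 4.

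Among the partners of Itgb2, Itgam was the most abundant, Itgal followed, and Itgax lay far below both. Itgam (chr7:128062640-128118491, plus strand), the alpha chain of Mac-1 and a common myeloid surface marker (CD11b), had 55.0, 28.1, 41.7 and 59.7 TPM, a mean of 46.1 ± 14.2 TPM (SD, n = 4). Itgal (chr7:127296260-127335138, plus strand), the alpha chain of LFA-1, had 41.1, 11.0, 32.5 and 27.3 TPM, a mean of 28.0 ± 12.7 TPM (SD, n = 4). Both had their lowest value in replicate 2, and Itgam was the higher in 4 of 4 libraries. Another protein-coding gene, Gm49368 (chr7:128062683-128128160), overlaps Itgam on the same strand and was given 0.15 to 1.97 TPM, so the split of reads between these genes is uncertain.

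Itgax (chr7:128129547-128150657, plus strand), the alpha chain CD11c that is widely used as a dendritic cell and tissue macrophage marker, begins 11055 bases beyond the end of Itgam on the same strand. It had 0.59, 0.15, 0.52 and 0.44 TPM, a mean of 0.425 ± 0.193 TPM (SD, n = 4), from 115, 41, 158 and 82 expected counts. All 4 values lay below 1 TPM, at -1.17 ± 0.25 (SE) on the log2 scale (limma, adjusted p = 0.00168). That side depends on the scale: rescaled to protein-coding genes, Itgax averaged 1.35 TPM and was called on neither side (limma, adjusted p = 0.258). On either scale its reads were above the limit that a count of 0 allows, which is 3 counts or at most 0.0161 TPM for this gene. Of the genes tested, 30.8% had a lower mean TPM. Of 8 dendritic cell markers, 1 lay above 1 TPM (Batf3, chosen after its values were seen), 5 lay below it, and the list summed to between 2.09 and 4.15 TPM per library, lowest in replicate 2, where Itgax was also lowest; its part in the level of Itgax was not tested.

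**Figure D2:**
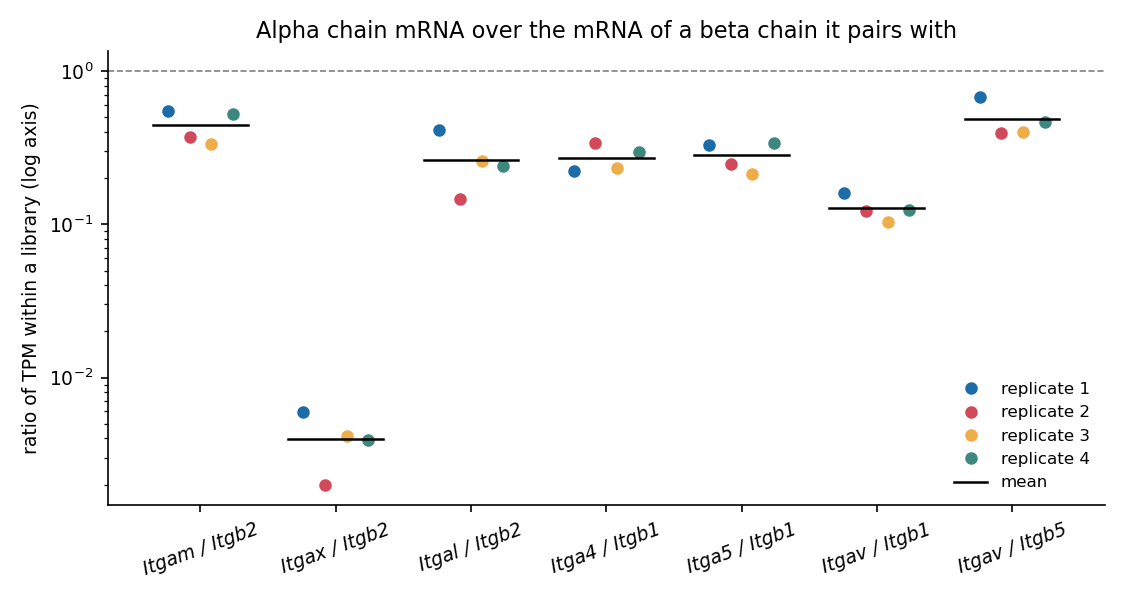
Ratio of an alpha chain's TPM to that of a beta chain it pairs with, within each library (log axis); points are the 4 replicates, black lines the means and the dashed line equal levels. Every point lies under 1, with means between 0.486 for Itgav over Itgb5 and 0.00399 for Itgax over Itgb2.

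Set against Itgb2 within each library, 8 of the other 9 members were lower and Itgb1 was not called (limma on the log2 difference, two-sided, adjusted over 16261 genes). Of all genes 96.2% were below Itgb2, so this count is what the level of Itgb2 gives for most genes. Itgam reached 0.553, 0.373, 0.333 and 0.528 of the Itgb2 level in replicates 1 to 4, a log2 difference of -1.19 ± 0.15 (SE) (limma, adjusted p = 1.89e-14). Itgal reached 0.413, 0.146, 0.259 and 0.241 of it, a log2 difference of -2.01 ± 0.15 (SE). Itgax reached 0.00199 to 0.00593 of it, a log2 difference of -7.69 ± 0.27 (SE); for so low a gene this depends on the pseudocount of 0.1, and it was -6.18 with a pseudocount of 1 and -8.03 with 0.01. These standard errors borrow from the spread of all genes, whose differences share the value of Itgb2, and the differences were all of 1 sign in 4 of 4 libraries. Without the variance trend, Itgam had an SE of 0.19 and an adjusted p of 9.21e-05, and Itgal an SE of 0.23 (limma).

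Itgam and Itgal therefore divided nearly all the TPM of the Itgb2 partners between them. With Itgad, a further partner listed at 0.01 to 0.05 TPM, the partners summed to 0.972, 0.521, 0.597 and 0.773 of the Itgb2 level in replicates 1 to 4. Itgam took 56.9%, 71.5%, 55.8% and 68.3% of that sum, and Itgal 42.5%, 27.9%, 43.5% and 31.2%. Replicates 2 and 4 leaned further to Itgam than replicates 1 and 3. Itgax took 0.548 ± 0.136% of it (SD, n = 4).

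Among the alpha chains that pair with Itgb1, Itga5 and Itga4 stood at about the same level and Itgav below them. Itga5 (chr15:103344286-103366763, minus strand), the fibronectin receptor chain, had 27.8, 16.3, 23.2 and 32.8 TPM, a mean of 25.0 ± 7.04 TPM (SD, n = 4). Itga4 (chr2:79255426-79333123, plus strand), the chain that binds Vcam1, had 18.9, 22.2, 25.3 and 28.8 TPM, a mean of 23.8 ± 4.22 TPM (SD, n = 4). Itga5 was the higher in 2 of 4 libraries and Itga4 in the others, so their order was not settled. The gene Cerkl overlaps the end of Itga4 on the opposite strand and had 1.08 to 2.56 TPM; whether the counting used strand is not given in the sources used here.

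Itgav (chr2:83724397-83806916, plus strand) had 13.5, 8.03, 11.3 and 12.0 TPM, a mean of 11.2 ± 2.31 TPM (SD, n = 4). It was lowest in replicate 2. Set against Itgb1, 7 of the other 9 members were lower, with Icam1 and Itgb2 not called, where 95.5% of all genes were lower. Itga4, Itga5 and Itgav reached 0.274 ± 0.056, 0.283 ± 0.061 and 0.128 ± 0.023 of the Itgb1 level (SD, n = 4). Together these 3 alpha chains summed to 0.684 ± 0.093 of Itgb1, and the 12 alpha chains that can pair with it to 0.864 ± 0.122 (SD, n = 4).

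For Itgav the beta chains on offer differed widely in level. Itgav had 0.678, 0.394, 0.403 and 0.469 of the TPM of Itgb5 in replicates 1 to 4. Both gene levels include shortened transcripts, described below. The log2 difference was -1.07 ± 0.15 (SE), below Itgb5 in 4 of 4 libraries (limma, adjusted p = 6.86e-06), where 83.7% of all genes tested were lower than Itgb5. Of its other partners, Itgb3 had 0.24 ± 0.125 TPM (SD, n = 4), and Itgb8 and Itgb6, named here for that pairing, averaged 0.0525 TPM and 0.0025 TPM. The Itgb1 and Itgb5 chains were thus the abundant ones at the mRNA level, with Itgb1 on average at 88.7 TPM and Itgb5 at 23.5 TPM.

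Icam1, the ligand of the list, is an immunoglobulin-family protein whose gene is a textbook target of NF-kB in inflammation. Icam1 (chr9:21015985-21028817, plus strand) had 70.2, 50, 71.9 and 105 TPM, a mean of 74.3 ± 22.8 TPM (SD, n = 4). It was lowest in replicate 2 and highest in replicate 4. Relative to Itgb2 in the same library it stood at 0.705, 0.665, 0.575 and 0.93, a log2 difference of -0.50 ± 0.16 (SE) (limma, adjusted p = 0.00177). Relative to Itgb1 it was lower in 3 of 4 libraries and higher in replicate 4 (limma, adjusted p = 0.0861). Icam1 thus had a higher mean than either alpha chain of its receptors, by 1.61 times for Itgam, and it exceeded Itgam in 4 of 4 libraries.

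In order of mean TPM the members ran Itgb2, Itgb1, Icam1, Itgam, Itgal, Itga5, Itga4, Itgb5, Itgav and Itgax. Of the 9 neighbouring pairs, 5 kept their order in all 4 libraries: Itgb2 over Itgb1, Icam1 over Itgam, Itgam over Itgal, Itgb5 over Itgav, and Itgav over Itgax. Itgal, Itga5, Itga4 and Itgb5 formed a run whose neighbours changed places between libraries, each pair being in that order in 2 of 4 libraries (exact sign-flip permutation, p = 0.875). Itgb1 lay above Icam1 in 3 of 4 libraries. With 4 libraries the exact test cannot go below 0.125, and the adjusted value of the 5 stable pairs was 0.225 over the 9 pairs. The widest step was the last, with Itgav 26.4 times above Itgax in mean TPM.

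The members differed in how far the replicates spread. The biological coefficient of variation (edgeR, the relative spread of expected counts beyond counting noise) was 0.427 for Itgax and 0.345 for Itgal, higher than in 97.5% and 94.1% of the 10989 genes whose mean count reached 50. The other 8 members lay between 0.146 for Itgb5 and 0.203 for Itgam. The median over the 10 members was 0.174, against 0.158 over those genes. For Itgal the highest library, replicate 1, had 3.75 times the TPM of the lowest, replicate 2. On the count scale Itgal had 314, 93.7, 248 and 176 CPM in replicates 1 to 4 (counts scaled to a common library total after TMM adjustment for library composition).

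Replicate 2 was the lowest library for 8 of 10 members in TPM, in TMM-scaled CPM and in TPM rescaled to protein-coding genes. In the second quantification it was the lowest for 8 members after that rescaling and for 5 in deposited TPM, where replicate 3 was the lowest for 4, and in expected counts, which follow depth, it was the lowest for 6. The exceptions were Itga4 and Itgb5, which were lowest in replicate 1 on the first 3 of these scales. In TPM as deposited, the 10 macrophage markers summed lowest in replicate 2, at 4454 TPM, against 5962 to 6868 TPM in the other libraries. On that scale the protein-coding genes as a whole were also lowest in replicate 2, at 253019 TPM. The marker sum was not rescaled, so its lowest library may differ on the rescaled scale. The part of the marker sum in the members' levels was not tested.

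The members also differed in the kinds of transcript that made up their level. Each gene had between 2 and 9 annotated transcripts with values, and 2 quantifications were deposited: the first used reads aligned to the transcriptome, and the second used the unaligned reads. In Icam1, Itgb1, Itga5, Itgax, Itga4 and Itgb2 a single transcript held most of the gene's TPM in the first quantification, between 94.5% in Itgb2 and 99.1% in Icam1. In Itgam, Itgal, Itgav and Itgb5 the level was divided between transcripts. The first 3 of these are alpha chains in which 2 of the main transcripts differ at an exon edge by 3 coding bases. In Itgav the 3 bases are a small part of the difference. Itgav-201 has 30 exons and 3132 coding bases, and Itgav-206 has 3 exons and 405 coding bases. In each of the 3 genes, the 3 bases lie at a splice junction and their absence keeps the reading frame there. Those junctions are shown with 30 coding bases on each side, 5′ to 3′ on the plus strand, from the GENCODE M21 transcripts on mm10. Capitals mark the 3 bases that only the first transcript of each pair holds. They lie at chr7:128101634-128101636 (start of exon 14) in Itgam, chr7:127317364-127317366 (end of exon 18) in Itgal and chr2:83736510-83736512 (start of exon 2) in Itgav.
Itgam-201: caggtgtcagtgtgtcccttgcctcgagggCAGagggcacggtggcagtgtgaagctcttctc
Itgam-203: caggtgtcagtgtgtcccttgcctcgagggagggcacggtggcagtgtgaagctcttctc
Itgal-201: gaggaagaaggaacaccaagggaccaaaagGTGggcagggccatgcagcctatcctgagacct
Itgal-202: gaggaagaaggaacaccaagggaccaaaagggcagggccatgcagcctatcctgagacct
Itgav-201: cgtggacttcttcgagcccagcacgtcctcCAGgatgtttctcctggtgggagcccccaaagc
Itgav-206: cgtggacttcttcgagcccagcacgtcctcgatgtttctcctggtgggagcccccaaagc

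In Itgam the form without the 3 bases was the leading one. Itgam-203 took 63.0%, 59.4%, 61.3% and 65.2% of the gene's TPM in replicates 1 to 4, and Itgam-201 took 35.6%, 39.7%, 36.5% and 33.1%. The ranges did not overlap, and the second quantification gave 61.4 ± 2.03% for Itgam-203 and 33.6 ± 2.60% for Itgam-201 (SD, n = 4). Apart from the 3 bases, the transcripts differ in their annotated starts, 128062640 for Itgam-201 and 128062669 for Itgam-203, and by 1 base at the end, so the shares do not rest on the 3 bases alone.

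In Itgal the form with the 3 bases had the highest mean share in both quantifications. Itgal-201 took 57.6%, 49.2%, 53.2% and 49.7% of the TPM in the first quantification, and 49.1 ± 4.51% in the second (SD, n = 4). The rest was placed differently by the 2 quantifications. The first gave 28.6 ± 2.81% to Itgal-203, a form with 21 of the 31 exons of Itgal-201 and 2295 coding bases in place of 3486, and 18.0 ± 4.30% to Itgal-202 (SD, n = 4). The second gave 2.96 ± 2.19% to Itgal-203 and 42.9 ± 2.71% to Itgal-202 (SD, n = 4). In replicate 2 of the second quantification Itgal-202, at 46.6%, stood above Itgal-201, at 44.9%, so the order of these forms turned there. The quantifications also placed the shortened form so differently that its level was not settled by these tables. Itgal-201 and Itgal-202 also differ in their annotated starts, 127296291 and 127296260, so their shares do not rest on the 3 bases alone.

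In Itgav the full-length form led, and in the first quantification short annotated forms took most of the rest. Itgav-201 took 61.3%, 57.8%, 62.8% and 66.0% of the TPM, and Itgav-206 took 13.9%, 17.9%, 21.4% and 20.5%. Itgav-206 is annotated as 688 bases in 3 exons, against 7054 bases in 30 exons for Itgav-201, so its share covers the whole short transcript and not only the junction shown. Another form, Itgav-205, annotated as 463 bases, took 22.7%, 19.9%, 14.8% and 12.6%, more than Itgav-206 in replicates 1 and 2 and less in replicates 3 and 4. The second quantification gave Itgav-201 70.5 ± 5.01% and Itgav-206 23.6 ± 3.64% (SD, n = 4). It listed Itgav-205 at 0 in replicates 1, 3 and 4 and at 2.98% in replicate 2, so the quantifications disagree on that form.

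In Itgb5 a longer form led and a shortened form held most of the rest. The longer form, of 3282 bases, took 57.3%, 49.1%, 52.8% and 55.7% of the TPM in replicates 1 to 4. The shortened form, of 2130 bases, took 39.7%, 47.9%, 45.5% and 41.8%. The shortened form is annotated to begin at position 33891941 of chromosome 16, where the longer begins at 33829665, and it has 1458 coding bases against 2397. The longer form was the higher in 4 of 4 libraries in both quantifications, and in the second the longer took 57.7 ± 3.04% and the shortened 36.5 ± 2.01% (SD, n = 4).

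**Figure D3:**
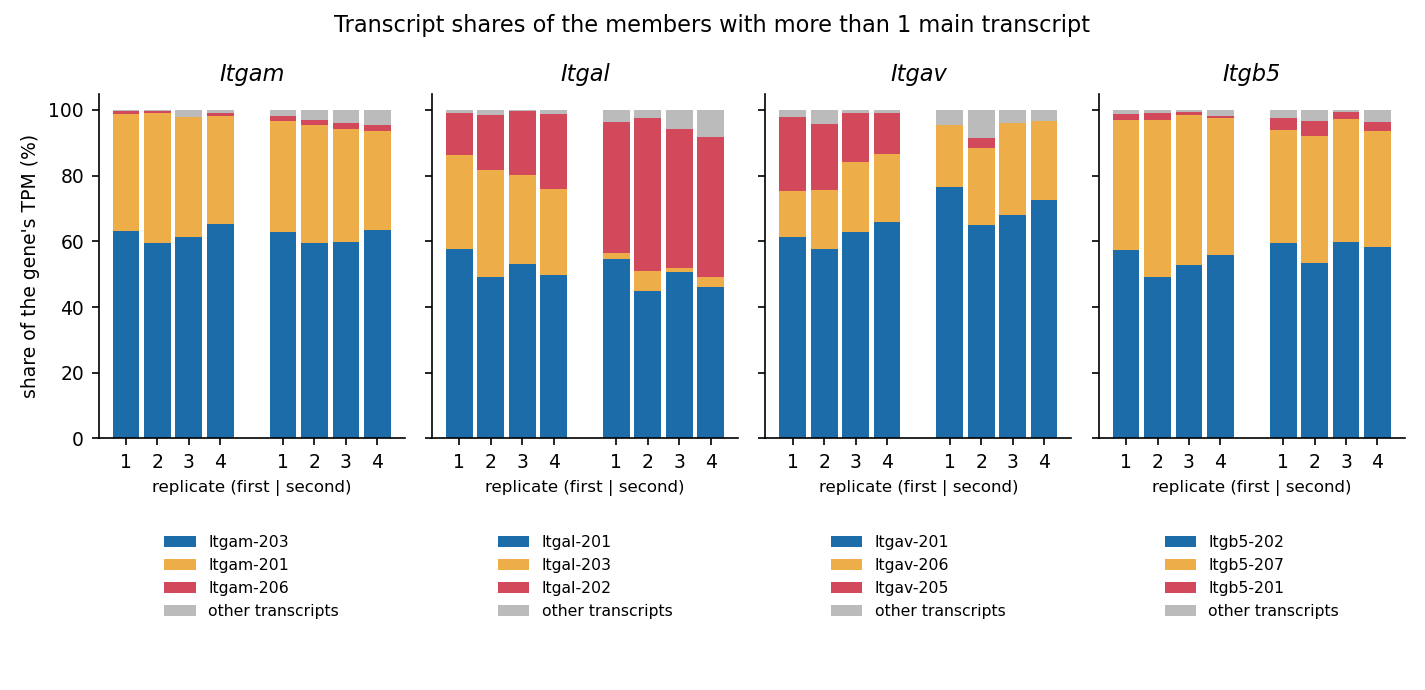
Share of each gene's TPM by transcript (%, stacked bars) in replicates 1 to 4, with the first quantification left and the second right in each panel. Itgam-203 leads Itgam in both, while the Itgal remainder moves from Itgal-203 in the first to Itgal-202 in the second and Itgav-205 is nearly absent from the second.

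Part of each gene's TPM lay on transcripts annotated as retained intron, processed transcript or subject to nonsense-mediated decay. In 4 members the share of these transcripts was highest in replicate 2, in 3 it was highest in replicate 4, in 2 in replicate 1 and in 1 in replicate 3. For Itga4 it was 2.44%, 9.91%, 3.33% and 4.21% in replicates 1 to 4. For Itga5 it was 0.54%, 5.35%, 1.08% and 2.41%. Itgav reached 3.11% and Icam1 1.68% in replicate 2, against at most 0.998% and 0.723% in the other libraries. Itgam went the other way, with its lowest share, 0.463%, in replicate 2, and in Itgal these transcripts were listed at 0 in replicates 2 and 3. The second quantification gave larger shares in replicate 2, 20.5% for Itga4 and 13.6% for Itga5, against at most 8.65% and 4.33% in its other libraries. The same 4 members were highest in replicate 2 in the second quantification as well, where Itgb2 joined them. In replicate 2, long noncoding genes held 1.63% of the counts (exact 95% interval 1.63% to 1.64%, counting error only), against 0.466% to 0.766% in the other libraries, and retained-intron transcripts held 1.99%, against 1.13% to 1.46%. The nuclear RNA Malat1, chosen after its values were seen, had 719 TPM in replicate 2 and 55.7 to 416 TPM in the others. The part of these in the members' transcript shares and levels was not tested.

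**Figure D4:**
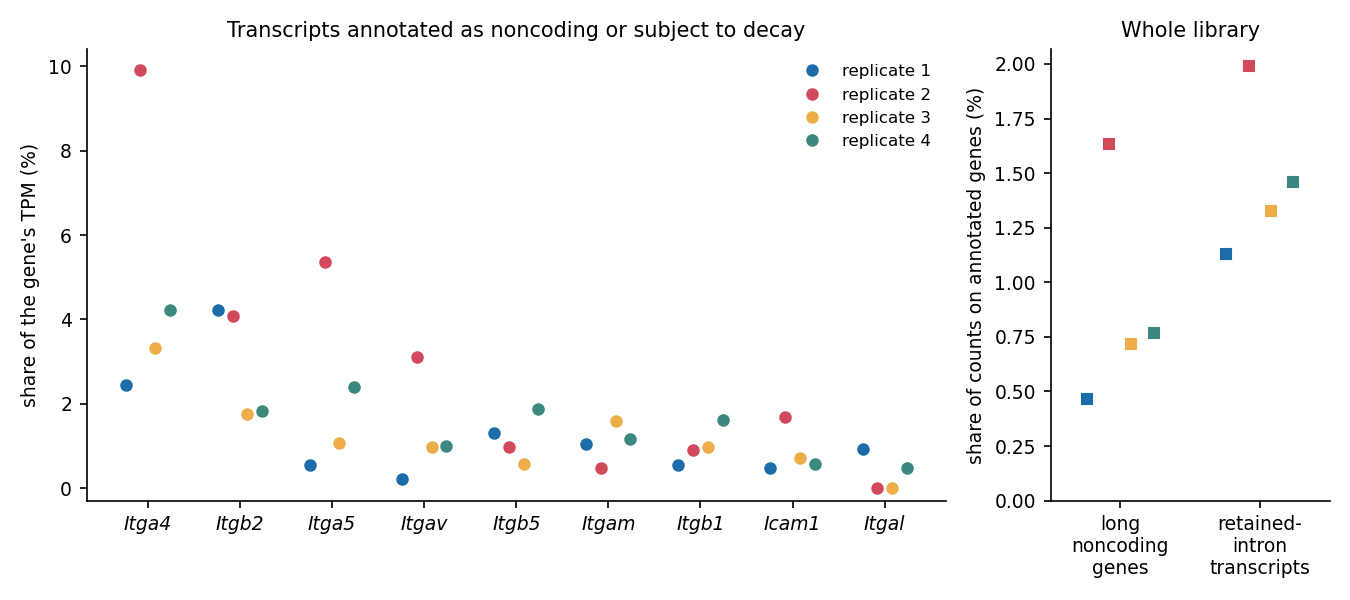
Left, share of a gene's TPM (%) from transcripts annotated as retained intron, processed transcript or subject to decay, for the 9 members other than Itgax, with 1 point for each replicate; right, the share of all counts on annotated genes (%) from long noncoding genes and from retained-intron transcripts. Replicate 2 is highest for Itga4 at 9.91%, Itga5, Itgav and Icam1, and in both library-wide shares.

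At the gene level the deposited TPM of the members was lower in the second quantification, where Itgb2 averaged 35.4 TPM, against 103 TPM in the first, and Itgam 16.3 TPM, against 46.1 TPM. For the 9 members other than Itgax, which was too low to enter on that scale, the log2 differences of deposited TPM ran between -1.69 and -1.46, and 0 of 9 was called (limma treat, adjusted p of 0.0561 for Itgav and 0.101 for the others). Each of these 9 differences had the same SE, 0.26, which borrows from the spread of all genes. The share of all genes called on that scale is not given here, so 0 of 9 is no result about the members. Protein-coding genes took 88247 to 139803 TPM per library in the second quantification. After both were rescaled to protein-coding genes, 0 of 10 members differed by more than 1 on the log2 scale (limma treat, adjusted over 14119 genes), where 4.27% of genes did. Every adjusted p of the members was 1.0, and their log2 differences, second minus first, ran between -0.25 ± 0.05 (SE) for Itgav and -0.01 ± 0.03 (SE) for Itga4. Over all genes the median difference was 0.05.

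The other integrin subunits were mostly at very low levels. Of 18 subunits outside the members, 3 lay above 1 TPM, 10 lay below and 5 had too few counts to test. Over all genes tested 58.2% lay above and 35.1% below, and of the protein-coding ones 71.2% lay above. Genes with too few counts are left out of these shares but counted among the 18. Itga6, a laminin receptor chain, was the highest with 13.5 ± 2.57 TPM, followed by Itgb7, which pairs with Itga4 and Itgae, with 2.72 ± 0.838 TPM, and Itga9 with 1.84 ± 0.715 TPM (SD, n = 4). The highest subunit not above 1 TPM was Itgb3. For Itga4 the beta partner Itgb1 was thus at 88.7 TPM and the alternative Itgb7 at 2.72 TPM.

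The genes that carry signals to and from the integrin tails were largely present. Of 33 activation and adaptor genes, 27 lay above 1 TPM, 2 lay below and 4 had too few counts to test. Over all genes tested 58.2% lay above and 35.1% below, and of the protein-coding ones 71.2% lay above. These shares leave out genes with too few counts. The 3 highest were Fyb, an adaptor known from T cells for coupling receptor signals to integrin activation, with 312 ± 62.4 TPM, the small GTPase Rap1b with 199 ± 54.2 TPM, and the Src-family kinase Lyn with 96.1 ± 25.7 TPM (SD, n = 4). The highest not above 1 TPM was Fgr, another Src-family kinase, with 0.60 ± 0.207 TPM (SD, n = 4). Within families a single form dominated: Tln1 had 56.5 TPM and Tln2 0.04 TPM on average, and of the kindlins Fermt3 had 85.5 TPM, Fermt2 0.0025 TPM and Fermt1 was listed at 0 in every library; these were named for their role, after their values were seen.

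Of 19 genes for integrin ligands or ligand-associated proteins, 8 lay above 1 TPM, 4 lay below and 7 had too few counts to test. Over all genes tested 58.2% lay above and 35.1% below, and of the protein-coding ones 71.2% lay above. Genes with too few counts are left out of these shares but counted among the 19. The 3 highest were Spp1 (osteopontin), a ligand of Itgav pairs, with 464 ± 53.9 TPM, the integrin-associated protein Cd47 with 162 ± 48.1 TPM, and Tgfb1, whose latent form is bound by Itgav pairs, with 117 ± 15.6 TPM (SD, n = 4). The highest not above 1 TPM was F11r, a junctional ligand of LFA-1, with 0.32 ± 0.098 TPM (SD, n = 4). Of the other ICAM genes, named after their values were seen, Icam2 had 2.52 ± 0.715 TPM (SD, n = 4), against 74.3 TPM for Icam1, and Icam5 averaged 0.0425 TPM. Vcam1, the ligand of Itga4, had 2.93 ± 1.15 TPM, and fibronectin (Fn1), the ligand of Itga5, had 0.115 ± 0.047 TPM (SD, n = 4).

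**Figure D5:**
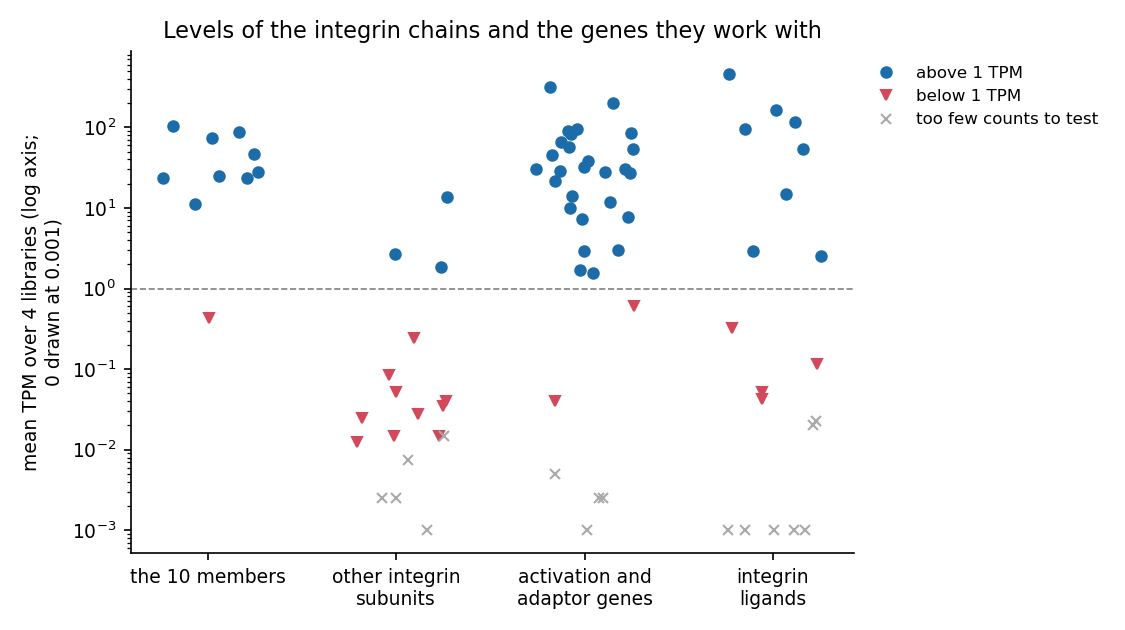
Mean TPM over the 4 libraries (log axis, 0 drawn at 0.001) of the members and of 3 groups of related genes; each point is a gene, with its call against 1 TPM as deposited. Of the members 9 lie above the line and Itgax below it. After rescaling to protein-coding genes, Itgax is called on neither side, with a mean of 1.35 TPM. Of the other integrin subunits 3 lie above.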

How the data were processed

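Total RNA of the cytosolic fraction was measured in 4 libraries of 1 group. Per the deposited notes, both quantifications used mm10 with the M21 annotation; of the tools, no name or version is given in the sources used here. Per the file headers, the authors' gene tables and first transcript tables hold expected counts and TPM, and the second transcript tables estimated counts and TPM. Rows that name no gene held 0.024% to 0.383% of the expected counts and were left out of every test.

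The members and gene lists were chosen with earlier results of these data known. Genes with at least 10 expected counts over the 4 libraries entered limma 3.58.1 tests on log2(TPM + 0.1), with a variance trend, against 1 TPM or against a gene of the same library; log2 differences with that pseudocount understate the change of low genes. For genes reaching a mean of 1 TPM in either quantification, limma treat without a trend compared the quantifications. The spread came from edgeR 4.0.16 on expected counts rounded to whole numbers, and DESeq2 1.42.0 gave alternative size factors. Calls used an adjusted p below 0.05. Shares of a class have exact (Clopper-Pearson) 95% intervals, which, like the limit of 3 counts, cover counting error only. A transcript's share is its percentage of the gene's summed TPM. The fits were tested on simulated data. No 2 libraries agreed within sampling noise (chi-square per degree of freedom 106 to 167).

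Named are the 10 members, the 2 leading transcripts of each divided gene and the third where the quantifications disagree, and of each list the 3 genes of highest TPM and the highest not above 1 TPM; others are marked. The software was R 4.3.3 with Python 3.11.15.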

Additional observations from a re-analysis of the deposited data

Results flagged for a closer look

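In 4 of 47 sets of 4 values examined, 1 library stood apart from the other 3 by Dixon's ratio. Chance gives about 1 in 20 for independent sets. These sets were not independent, so the count cannot be set against that rate. After rescaling to protein-coding genes, Itgb1 had 362.6 TPM and Itgb2 417.7 TPM in replicate 3, against 258 to 267 and 297 to 314 TPM in the other replicates, so both beta chains stood out in the same library. For Itgax, Itgax-201 took 81.82% of the TPM in replicate 4 and 100.0% in the others, and transcripts annotated as retained intron took 11.36% in replicate 4 and 0 in the others. Both Itgax sets are shares of the same gene, and with the other 3 libraries tied the ratio is 1.0 for any departure. Itgax had 82 expected counts in replicate 4, which limits how finely its TPM can be divided. The causes were not tested.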

How the results depend on the processing

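The counts of members above 1 TPM, below Itgb2 and below Itgb1 stayed within 1.5 times their value under every alternative run for each. These alternatives were other pseudocounts, a stricter count filter and none beyond a count above 0, posterior mean TPM and the second quantification. They also included no variance trend and each replicate left out, and other scalings for the level against 1 TPM only. The count differing between the quantifications was 0 in every alternative run for it. Those were other pseudocounts and filters, deposited TPM, a 1.5-fold threshold and each replicate left out. The number of neighbouring pairs with a fixed order also stayed within 1.5 times its value. Its alternatives were fewer and were chosen after the data had been seen. Without replicate 3, 9 members in place of 8 were below Itgb2. Itgav stayed below Itgb5, at -1.24 to -0.98 on the log2 scale with a replicate left out. The call of Itgax below 1 TPM was lost on rescaling. Its mean was 1.347 TPM after rescaling to protein-coding genes and 1.312 TPM after rescaling the second quantification, and neither was called. With a replicate left out, the difference between the quantifications ran from -0.02831 to 0.02187 for Itga4 and from -0.03906 to 0.001453 for Itga5, positive without replicate 1. The Itgax share of the Itgb2 partners was 0.856% with posterior mean TPM. The leading transcript's share moved by more than 1 SD in the second quantification for 5 members, to 90.1% in Itga4, 94.3% in Itga5, 70.5% in Itgav, 98.5% in Itgb1 and 57.7% in Itgb5. The causes were not tested. No paired analysis was possible because there is 1 group. Depth limits Itgax, with 41 to 158 counts per library, and the subunits with too few counts to test. With 4 libraries of 1 group, differences between replicates cannot be tied to a cause.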
